A study of Mus musculus with 8 samples.

Results

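The genes described here are 50 genes of ribosome biogenesis and RNA polymerase I, taken by symbol from a fixed list and read from a table of 38924 mouse genes. All 50 were in the table, and 49 of them passed the filter on low values that left 17698 genes for testing. The study profiled mouse embryos in 3 states by RNA sequencing: the inner cell mass (ICM) of blastocysts held in diapause, the epiblast after implantation, and the ICM of blastocysts before implantation. ICM cells give rise to the embryo proper, and diapause is a reversible arrest in which the blastocyst stays unimplanted in the uterus. Diapaused ICM (3 libraries) came from embryos of females given tamoxifen by injection and 0.5 mg of Depo Provera, a progestin, at day 3.5, and was collected 5 days after that. Epiblast (2 libraries) came from day 6.5 embryos, and ICM (3 libraries) from day 3.5 blastocysts. The labels give C57BL/6 and female for all 8 libraries, and describe each as a biological replicate made from lysates of about 50 embryos, so each value is an average over a pool. Both drugs went with the arrest in every diapaused library, so the effects of the drugs, of the later collection and of diapause itself cannot be told apart.

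Ribosome biogenesis starts in the nucleolus, where RNA polymerase I copies the rDNA repeats into a long precursor RNA. Small nucleolar ribonucleoproteins (snoRNPs) guide chemical modification of that precursor, the small subunit processome folds and cuts its first part, and further factors assemble and export the small and the large ribosomal subunits. The pathway consumes much of a growing cell's energy, is switched on by mTOR and Myc signalling, and is known to be active in the fast dividing cells of the early embryo.

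Levels are the deposited "adjusted TPM" of each gene, a transcript abundance per length by its name. Fold changes are differences of group means of log2(level + 1) from limma, given ± SE, with p-values adjusted by the Benjamini-Hochberg method over all 17698 genes. A gene is said to have risen or fallen where the adjusted p was under 0.05. Summed levels differed between libraries, from 925053 to 1179026 in diapaused ICM, 1017225 and 1135971 in epiblast, and from 720674 to 983116 in ICM. Between 14634 and 15130 genes per library were at 1 or more, and the read depth behind the values is unknown. The 5 markers of post-implantation epiblast summed to between 7.5 and 13.6 in diapaused ICM, 285 and 575 in epiblast, and between 22.9 and 36.4 in ICM. The 6 pluripotency markers summed to between 406 and 509 in diapaused ICM, 254 and 323 in epiblast, and between 1730 and 1830 in ICM. Most of the gap to ICM was Dppa3, at 44.2 to 59.6 in diapaused ICM, 3.68 and 2.31 in epiblast, and 986.6 to 1361 in ICM. In diapaused ICM relative to ICM 2 of the 6 fell, Dppa3 and Tdgf1, and the other four, Pou5f1 and Nanog among them, did not pass. Markers of primitive endoderm, the other lineage of the ICM, summed over 9 genes to between 1500 and 1860 in diapaused ICM, 47.3 and 49 in epiblast, and between 495 and 584 in ICM. Of these 9 genes, 6 rose and 1 fell in diapaused ICM relative to ICM, and 7 fell in epiblast. The 7 blood and immune genes in the table summed to between 47.3 and 134 in diapaused ICM, 2.38 and 4.08 in epiblast, and between 5 and 10.1 in ICM. In diapaused ICM 4 of the 7 stayed under 1 in every library, and 5 of the 7 did in each of the other groups. Most of the sum in diapaused ICM was Laptm5, at 20.8 to 53.2, and Cd68, at 25.3 to 80.6. These were the only 2 of the 7 tested, and both rose in diapaused ICM relative to ICM. Ptprc and Tyrobp stayed under 1 in every library. Trophectoderm markers summed over 10 genes to between 71.4 and 213 in diapaused ICM, 66.9 and 70.1 in epiblast, and between 53 and 77.3 in ICM. The highest sum was that of diapaused replicate 3, with Krt18 at 120.8, against 17.2 and 17.5 in diapaused replicates 1 and 2. Of the 9 tested, 1 rose in diapaused ICM relative to ICM, Gata3, and 0 fell, against 7.52% and 5.81% of all genes. Markers of visceral endoderm summed over 8 genes to between 7.58 and 15.1 in diapaused ICM, 18.3 and 65.8 in epiblast, and between 4.56 and 8.71 in ICM. Those of mesoderm and primitive streak summed over 6 genes to between 0.728 and 1.63 in diapaused ICM, 22.5 and 35.9 in epiblast, and between 0.825 and 2.93 in ICM, and all 3 that were tested rose in epiblast relative to ICM. All 6 markers of maternal decidua stayed under 1 in every library. The part of these other cells in the results below was not tested, and in pooled samples fewer cells of a type and less RNA per cell cannot be told apart.

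Promoters are shown for 4 genes whose levels are described below: Polr1b, whose fall was seen in both diapaused ICM and epiblast, and 3 genes that hold the E-box CACGTG, the site bound by Myc and its partner Max. Each is RefSeq's window from 250 bases before to 50 bases after the annotated start, on GRCm38.p6, written 5′ to 3′ along the gene, with CACGTG in capitals. The authors' own build was mm9, so these coordinates are those of the annotation and not of the deposited table.
Polr1b, chr2:129100746-129101045, plus strand: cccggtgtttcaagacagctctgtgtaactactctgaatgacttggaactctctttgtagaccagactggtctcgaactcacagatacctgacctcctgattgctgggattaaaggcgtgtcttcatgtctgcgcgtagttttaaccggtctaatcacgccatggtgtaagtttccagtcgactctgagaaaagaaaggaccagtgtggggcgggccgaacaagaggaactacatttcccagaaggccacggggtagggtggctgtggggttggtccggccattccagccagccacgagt
Pes1, chr11:3963725-3964024, plus strand: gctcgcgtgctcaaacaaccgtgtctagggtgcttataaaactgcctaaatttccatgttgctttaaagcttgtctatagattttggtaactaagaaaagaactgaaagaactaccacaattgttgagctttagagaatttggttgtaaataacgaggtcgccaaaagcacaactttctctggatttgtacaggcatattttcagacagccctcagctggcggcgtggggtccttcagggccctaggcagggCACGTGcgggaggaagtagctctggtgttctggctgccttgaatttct
Rrn3, chr16:13780449-13780748, plus strand: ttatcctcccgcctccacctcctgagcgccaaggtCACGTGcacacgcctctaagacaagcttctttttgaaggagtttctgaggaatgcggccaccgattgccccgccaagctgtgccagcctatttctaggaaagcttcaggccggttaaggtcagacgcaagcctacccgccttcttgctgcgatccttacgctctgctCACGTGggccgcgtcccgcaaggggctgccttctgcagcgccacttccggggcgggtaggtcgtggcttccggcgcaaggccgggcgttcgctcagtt
Ltv1, chr10:13193088-13193387, minus strand: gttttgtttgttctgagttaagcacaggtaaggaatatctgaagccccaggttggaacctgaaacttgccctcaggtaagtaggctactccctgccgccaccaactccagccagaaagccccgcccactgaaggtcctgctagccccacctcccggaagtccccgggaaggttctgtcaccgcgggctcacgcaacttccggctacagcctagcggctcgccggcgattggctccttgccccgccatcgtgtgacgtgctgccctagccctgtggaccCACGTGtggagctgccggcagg
In Pes1 the motif begins 2 bases after the start, in Ltv1 28 bases after it, and in Rrn3 215 and 48 bases before it. CACGTG reads the same on both strands. Promoters were found for 43 of the 50 genes, and 8 of the 43 (18.6%) held the motif, against 8.09% of the 27025 genes with a promoter in the same table. The 8 were Ltv1, Nop2, Pes1, Rrn3, Tsr1, Utp18, Utp20 and Wdr43. Counted by window, the motif stood in 15.1% of the 53 windows of these genes and in 7.15% of all 32851 windows. Of the 6 genes that fell in diapaused ICM relative to ICM, 5 had a promoter and 1 held the motif. Of the 11 that rose in epiblast relative to ICM, 8 had a promoter and 0 held it.

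Relative to ICM, diapaused ICM had lower levels of 6 of the 49 tested genes and higher levels of 0. The 6 were the catalytic polymerase subunit gene Polr1b, the snoRNP gene Gar1, the processome genes Utp6 and Wdr75, and the large subunit genes Pes1 and Mrto4. The 6 make up 12.2% of the 49, against 5.81% of all genes lower. The 0 higher stand against 7.52% of all genes higher. At an unadjusted p under 0.05, limma gave 14 lower genes and 1 higher gene, Polr1c. No share of all genes was taken at that threshold, here or for the groups of genes below, so these counts have no background. Counting both directions, 12.2% of the 49 were called, near the 13.3% of all genes. The log2 change was negative for 37 of the 49, with a median of -0.28, against 0.00 to 2 decimals over all genes (8926 positive, 8772 negative). Levels of all 3 diapaused libraries lay below all 3 ICM libraries for 15 genes (30.6%, against 14.4% of all genes) and above them for 3 genes (6.12%, against 16.4%), which makes 36.7% in either direction, against 30.7% of all genes. The count of 6 lower genes was 2 without ICM replicate 1, ICM replicate 3, diapaused replicate 1 or diapaused replicate 2, and 3 without ICM replicate 2. With every library rescaled to the same sum, the median over all genes was -0.20 and that of the 49 genes -0.55. Of the 49, 9 were lower, and 1478 of all 17698 genes were lower, against 1029 with the values as deposited. Of all called genes 36.9% were higher, against 56.4% with the values as deposited. With the most abundant genes left out of that rescaling, the medians were -0.13 and -0.46. Then 9 of the 49 and 1400 of all genes were lower, and 42.7% of all called genes were higher. Without ICM replicate 3 the median of the 49 genes was -0.17.

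Relative to ICM, epiblast had higher levels of 11 of the 49 genes and lower levels of 6. The largest rise was that of Rrs1, a large subunit assembly factor, followed by the nucleolar chaperone Npm1 and the polymerase subunit gene Polr1e, and the largest fall was again that of Polr1b. The share that rose was 22.4%, against 16.7% of all genes, and the share that fell 12.2%, against 13.3%, so that in either direction 34.7% stood near the background of 30.1%. The median log2 change of 0.17 was also near the 0.14 of all genes, and was 0.075 without ICM replicate 2. It became -0.12, against -0.07 over all genes, with libraries rescaled to the same sum, -0.01 (0.01 over all genes) with abundant genes left out of that rescaling, and 0.01 (0.02) with median-of-ratios size factors. The epiblast libraries did not overlap with ICM for 57.1% of the 49, against 59.0% of all genes: they lay above it for 38.8% (33.9% of all genes) and below it for 18.4% (25.0%). Of all called genes 55.7% were higher with the values as deposited, and 36%, 43.2% and 44.7% under these 3 scalings. Without epiblast replicate 1, 4 genes rose and 1 fell, and without epiblast replicate 2, 9 rose and 3 fell.

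Diapaused ICM had lower levels than epiblast of 12 genes and a higher level of 1, the small subunit endonuclease gene Nob1. The share lower was 24.5%, against 18.6% of all genes, the share higher 2.04%, against 16.0%, and the share in either direction 26.5%, against 34.5%. Libraries of diapaused ICM and epiblast did not overlap for 59.2% of the 49 (61.4% of all genes), with diapaused ICM below for 51% (34.1%) and above for 8.16% (27.3%). The median log2 change was -0.41, against -0.11 over all genes. With median-of-ratios size factors these were -0.28 and -0.01, and 2 of the 49 genes were higher. Of all genes 3154 were then higher, against 2830 with the values as deposited, or 56% of all called genes, against 46.3%. Without epiblast replicate 1 the 12 lower genes became 7. Nob1 lost its call in 10 of 21 alternatives, among them each that left out a diapaused or an epiblast library, with adjusted p between 0.052 and 0.158 in those. The 3 comparisons share libraries pairwise and are not independent of each other.

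Group means put these genes lowest in diapaused ICM for 27 of the 49, or 55.1%, against 33.2% of all genes tested. They were highest in epiblast for 27 of the 49 (55.1%), against 44.7% of all genes, and highest in diapaused ICM for 4, Polr1c, Utp18, Rrp12 and Nop16, or 8.16%, against 30.3% of all genes. In all, 23 of the 49 genes were called in at least 1 comparison and 26 in none. That share of 46.9% was near the 46.2% of all genes tested. No called gene changed sign in any of the 21 alternatives of its comparison.

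**Figure D1:**
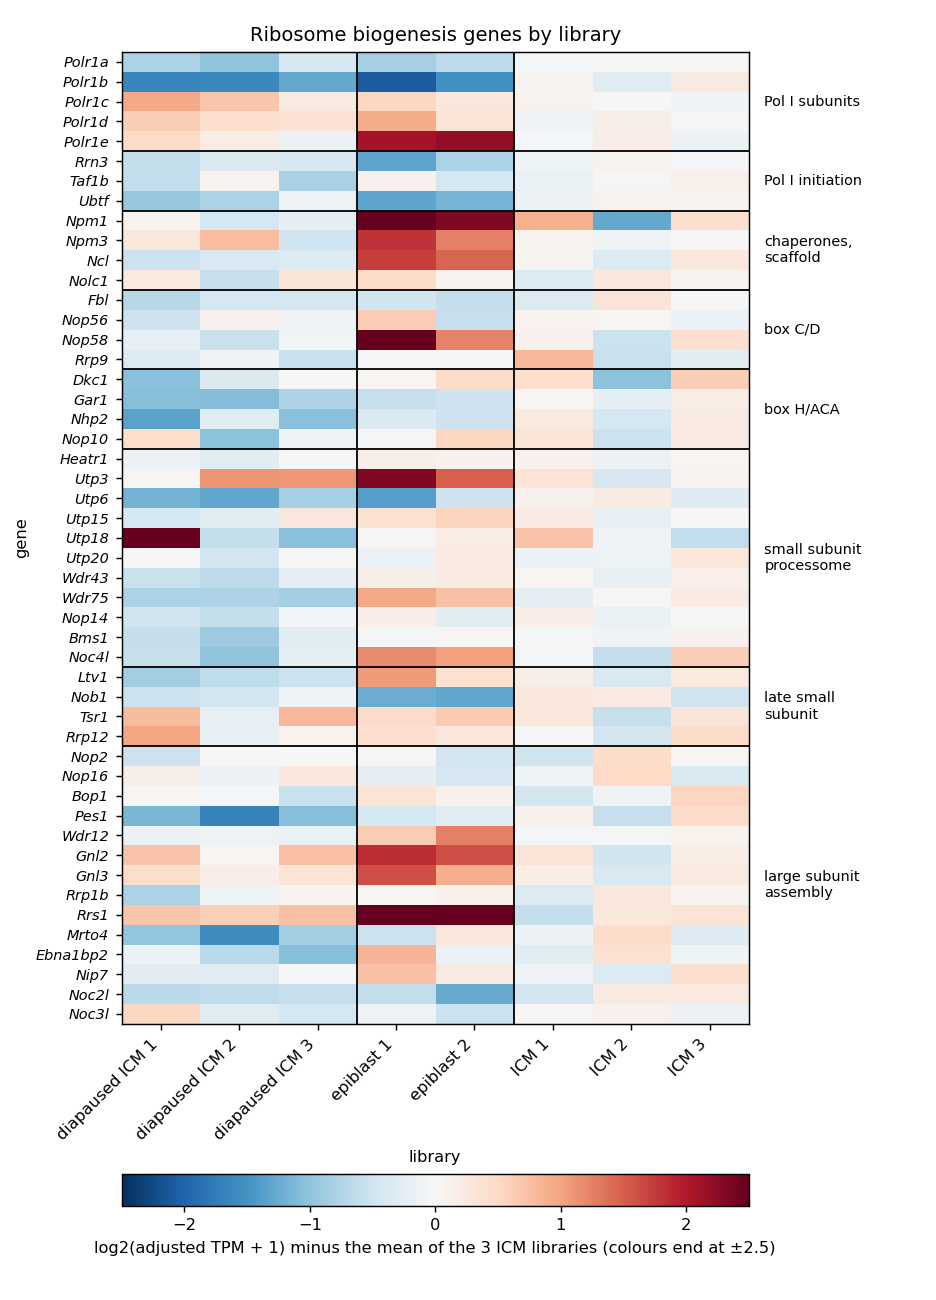
Level of each of the 49 tested genes (down the page, grouped by role) in each of the 8 libraries, as log2(adjusted TPM + 1) minus the mean of the 3 ICM libraries, with colours ending at ±2.5. Polr1b is blue in all 5 diapaused and epiblast libraries, while Rrs1, Npm1, Ncl, Nop58 and Polr1e are red in both epiblast libraries.

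**Figure D2:**
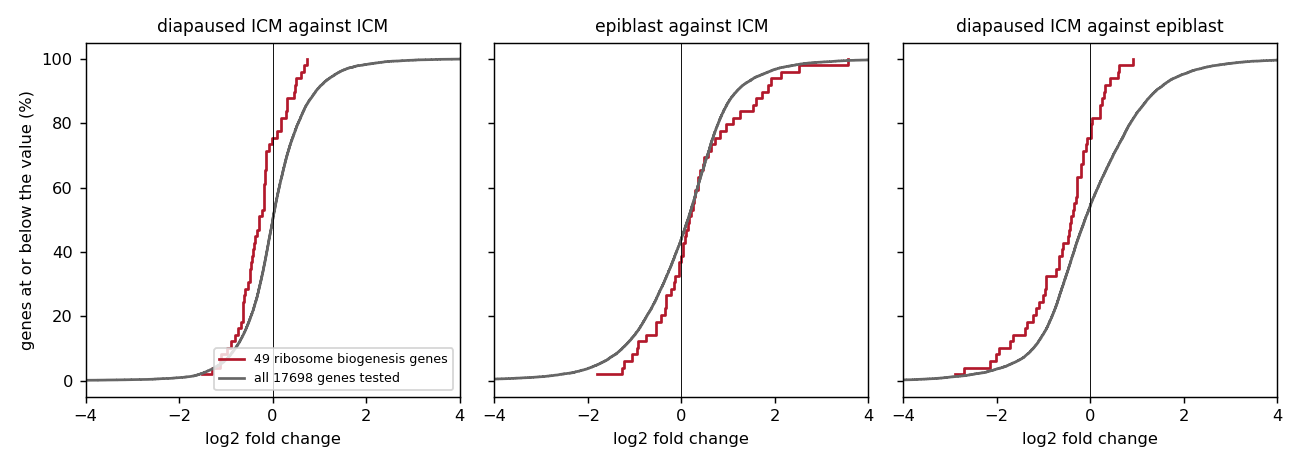
Share of genes (vertical axis, %) at or below each log2 fold change (horizontal axis) for the 49 genes (red) and for all 17698 genes tested (grey), 1 panel per comparison. The red curve lies left of the grey one around the middle in diapaused ICM against ICM (medians -0.28 and 0.00) and against epiblast (-0.41 and -0.11), and close to it in epiblast against ICM (0.17 and 0.14).

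The 5 genes of RNA polymerase I subunits did not move together. Polr1a and Polr1b encode the catalytic core subunits, Polr1c and Polr1d subunits shared with RNA polymerase III, and Polr1e a subunit of the initiation and elongation module. Polr1b (ENSMUSG00000027395, chr2:129100995-129126594, plus strand, GRCm38) was at 6.35, 6.47 and 8.39 in diapaused ICM, 4.38 and 6.95 in epiblast, and 23, 17.3 and 25.7 in ICM. Every ICM library thus lay above every other library. Polr1b fell by 1.50 ± 0.25 on the log2 scale in diapaused ICM (adjusted p = 0.00478) and by 1.80 ± 0.27 in epiblast (adjusted p = 0.00185), both against ICM, and kept both calls in all 21 alternatives. Between diapaused ICM and epiblast its change of 0.29 ± 0.27 did not pass (adjusted p = 0.428). Polr1a was at 8.34, 7.01 and 11 in diapaused ICM, 8 and 9.18 in epiblast, and 14.7, 15.2 and 15.4 in ICM. Its libraries split in the same way, with ICM above the rest. The log2 change of -0.74 ± 0.21 in diapaused ICM had an adjusted p of 0.0502, just outside the threshold, which 7 of 21 alternatives moved to between 0.0349 and 0.0465. Polr1a fell by 0.75 ± 0.24 in epiblast (adjusted p = 0.0414). That call was lost without any of the 3 ICM libraries or without diapaused replicate 1 (adjusted p between 0.0524 and 0.0855). It was also lost with quantile normalization (0.0728) and with the replicate number as a block (0.0887). Without epiblast replicate 1 the change was -0.66, and without epiblast replicate 2 it was -0.84.

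Polr1e (chr4:45018583-45036565, plus strand) went another way. It stood at 5.09, 4 and 2.94 in diapaused ICM, 17.4 and 19 in epiblast, and 3.29, 3.93 and 2.98 in ICM, so that the epiblast libraries alone were high. It rose by 2.13 ± 0.25 in epiblast relative to ICM (adjusted p = 0.000435), and was lower in diapaused ICM than in epiblast by -1.96 ± 0.25 (adjusted p = 0.000576), both held in all 21 alternatives. Against ICM, its change in diapaused ICM was 0.17 ± 0.22 (adjusted p = 0.684). Polr1c averaged 81.4 ± 20 in diapaused ICM, 68.6 ± 7.58 in epiblast and 51.6 ± 3.26 in ICM (SD, n = 3, 2 and 3), and Polr1d 87.9 ± 8.13, 100.1 ± 29.9 and 63.3 ± 5.76 in the same order. All libraries of diapaused ICM and of epiblast lay above all ICM libraries for both, but neither passed the test in any comparison.

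**Figure D3:**
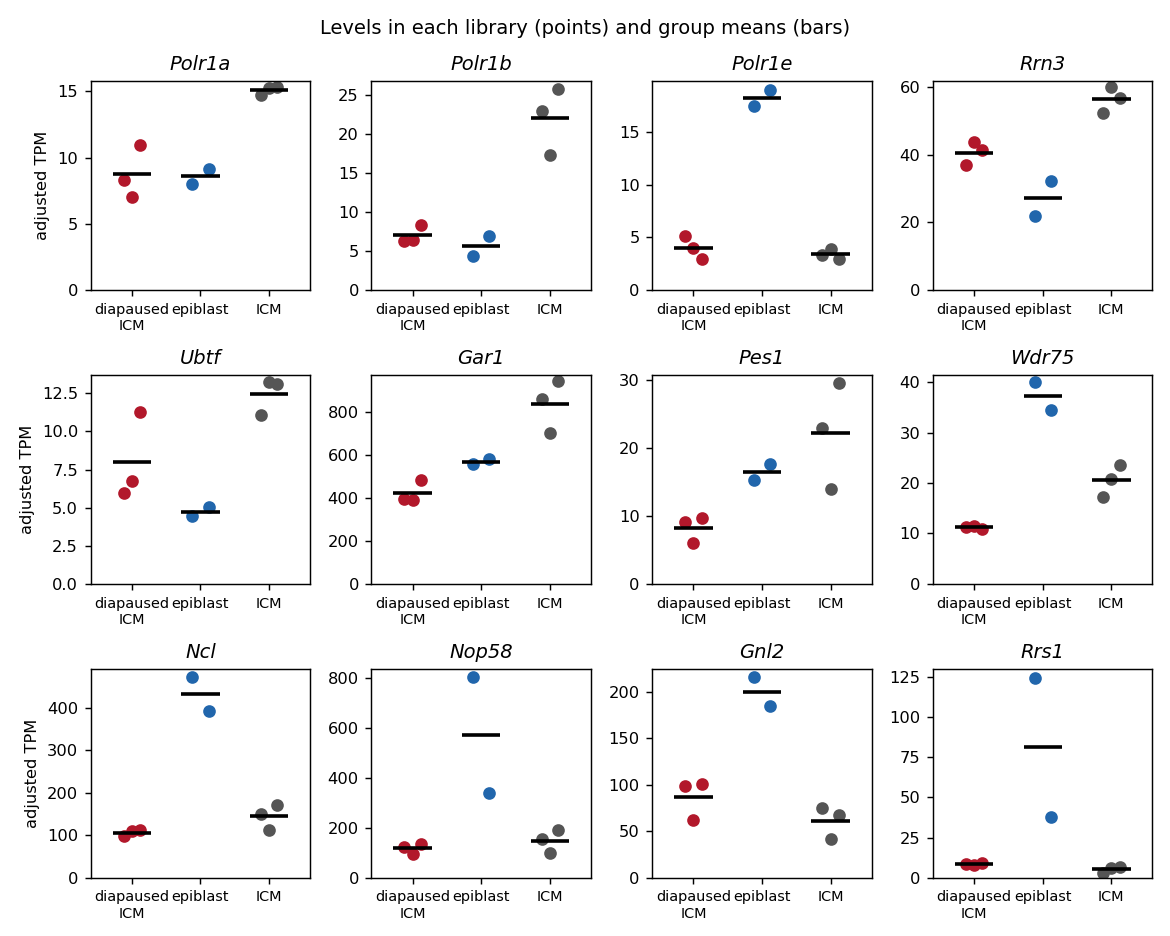
Adjusted TPM (vertical axis, from 0) of 12 genes in each library (points) and as group means (bars), for diapaused ICM, epiblast and ICM. Polr1b is low in diapaused ICM and epiblast, Gar1, Pes1 and Wdr75 have their lowest points in diapaused ICM, and Polr1e, Ncl, Nop58, Gnl2 and Rrs1 stand high in epiblast alone.

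Of the 3 tested initiation factor genes, 2 fell in epiblast and 0 passed in diapaused ICM relative to ICM (at an unadjusted p under 0.05, limma gave 1, Ubtf). Over all genes 13.3% fell in epiblast relative to ICM, and 13.3% were called in diapaused ICM relative to ICM. Rrn3 (TIF-IA) brings the polymerase to the promoter in response to growth signals, Ubtf binds the rDNA and keeps it open, and Taf1b and Taf1c belong to the selectivity factor SL1. Rrn3 was at 37, 43.8 and 41.3 in diapaused ICM, 22 and 32.2 in epiblast, and 52.4, 59.9 and 56.8 in ICM. These 3 ranges did not overlap, with ICM highest and epiblast lowest. Rrn3 fell by 1.05 ± 0.24 in epiblast relative to ICM (adjusted p = 0.0122, but 0.129 without epiblast replicate 1), and its change in diapaused ICM was -0.46 ± 0.22 (adjusted p = 0.208). Ubtf was at 5.95, 6.75 and 11.3 in diapaused ICM, 4.43 and 5.02 in epiblast, and 11.1, 13.3 and 13.1 in ICM. Diapaused replicate 3 thus reached into the ICM range. Ubtf fell by 1.23 ± 0.28 in epiblast (adjusted p = 0.0113; 0.0871 and 0.052 without epiblast replicate 1 and 2), while its change in diapaused ICM was -0.63 ± 0.25 (adjusted p = 0.14; 0.0391 without diapaused replicate 3). Taf1b averaged 5.69 ± 2.34 in diapaused ICM, 6.98 ± 2.1 in epiblast and 7.81 ± 0.88 in ICM and passed in no comparison. Taf1c lay between 0.124 and 0.679 in all 8 libraries and was not tested.

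Among the nucleolar chaperones and scaffold proteins, 3 of 4 rose in epiblast and 0 of 4 passed between diapaused ICM and ICM (at an unadjusted p under 0.05 also 0 of these 4). Of all genes, 16.7% rose in epiblast relative to ICM and 13.3% were called between diapaused ICM and ICM. Nucleolin (Ncl) binds rRNA and rDNA chromatin, nucleophosmin (Npm1) and Npm3 are histone and ribosome chaperones, and Nolc1 is a scaffold that binds snoRNPs. Ncl (chr1:86344719-86359400, minus strand) was at 97.6, 109.3 and 111.9 in diapaused ICM, 474.2 and 392.4 in epiblast, and 150.3, 112.8 and 171.2 in ICM. The epiblast libraries were far above the others, and the diapaused ones just below the lowest ICM library. Ncl rose by 1.59 ± 0.25 in epiblast (adjusted p = 0.0022) and was lower in diapaused ICM than in epiblast by -2.01 ± 0.25 (adjusted p = 0.000572), both in all 21 alternatives. In diapaused ICM against ICM its change was -0.42 ± 0.22 (adjusted p = 0.265). Npm3 averaged 8.21 ± 3.8 in diapaused ICM, 21.4 ± 6 in epiblast and 6.59 ± 0.48 in ICM. It rose by 1.54 ± 0.36 in epiblast (adjusted p = 0.0132, but 0.0557 with no filter on low values), and by 1.26 without epiblast replicate 1. Its lower level in diapaused ICM than in epiblast, -1.35 ± 0.36 (adjusted p = 0.02), was lost in 5 of 21 alternatives, among them without epiblast replicate 1 (0.143) and when the pseudogene Npm3-ps1 was added to it (0.125). Nolc1 averaged 39.1 ± 12.2 in diapaused ICM, 47.1 ± 8.99 in epiblast and 38.7 ± 8.19 in ICM.

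Npm1 was far more abundant than the other members. It was listed at 18270, 12630 and 14610 in diapaused ICM, 110400 and 85560 in epiblast, and 31540, 7052 and 22500 in ICM. That made 1.14% to 1.58% of the summed values in diapaused ICM, 8.41% and 9.71% in epiblast, and 0.978% to 3.21% in ICM. The other 49 genes together made 0.177% to 0.254% in diapaused ICM, 0.324% and 0.379% in epiblast, and 0.308% to 0.359% in ICM, so every diapaused library lay below every other one. Abundant genes weigh most in these sums, Gar1 among them, at means of 423.2 in diapaused ICM, 569 in epiblast and 837.7 in ICM. The median level of the 49 tested genes was 15.8 to 21.8 in diapaused ICM, 28.6 and 29.6 in epiblast, and 20.9 to 27.6 in ICM. By that median, diapaused ICM and ICM overlapped. Npm1 rose by 2.51 ± 0.53 in epiblast relative to ICM (adjusted p = 0.0087; 0.0696 without epiblast replicate 1) and was lower in diapaused ICM than in epiblast by -2.70 ± 0.53 (adjusted p = 0.00541). Both calls were lost with no filter on low values (0.64 and 0.599). Between diapaused ICM and ICM the change was -0.19 ± 0.48 (adjusted p = 0.851), and ICM replicate 2 was the lowest of all 8 libraries.

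The level of Npm1 cannot be separated with certainty from that of its processed pseudogenes, since how reads that match several places were counted is not given. The table holds 7 of them that match an Npm1 transcript at 90% identity or more, which together carried 44.7% of the summed level of gene and copies. A stretch of 90 coding bases is shown, from base 523 to 612 of the Npm1 coding sequence (chr11:33152287-33163206, minus strand, GENCODE M21 on GRCm38). It is the first in-frame stretch that aligned without gaps to the pseudogenes Gm14681 (chrX:66778442-66778852, minus strand) and Gm5611 (chr9:17030045-17030896, plus strand). Both hold the same bases with 0 mismatches, so that no letter is in capitals.
Npm1: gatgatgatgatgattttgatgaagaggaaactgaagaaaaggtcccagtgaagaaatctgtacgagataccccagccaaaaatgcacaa
Gm14681: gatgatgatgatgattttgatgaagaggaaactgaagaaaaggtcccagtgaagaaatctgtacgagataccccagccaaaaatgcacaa
Gm5611: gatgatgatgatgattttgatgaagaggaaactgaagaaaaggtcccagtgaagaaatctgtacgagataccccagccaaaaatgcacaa
A short read from such a stretch cannot be placed by its letters. Over the whole match Gm14681 was 97.4% identical to Npm1 and Gm5611 95.1%, so other stretches hold bases that differ. Gm14681 was listed at 2425, 3078 and 2120 in diapaused ICM, 82640 and 39340 in epiblast, and 3024, 923.2 and 4897 in ICM. Like Npm1 it was high in both epiblast libraries. With the 7 copies added to Npm1, the change in epiblast relative to ICM was 2.76 (adjusted p = 0.00396) and that of diapaused ICM against epiblast -2.96 (adjusted p = 0.00243).

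**Figure D4:**
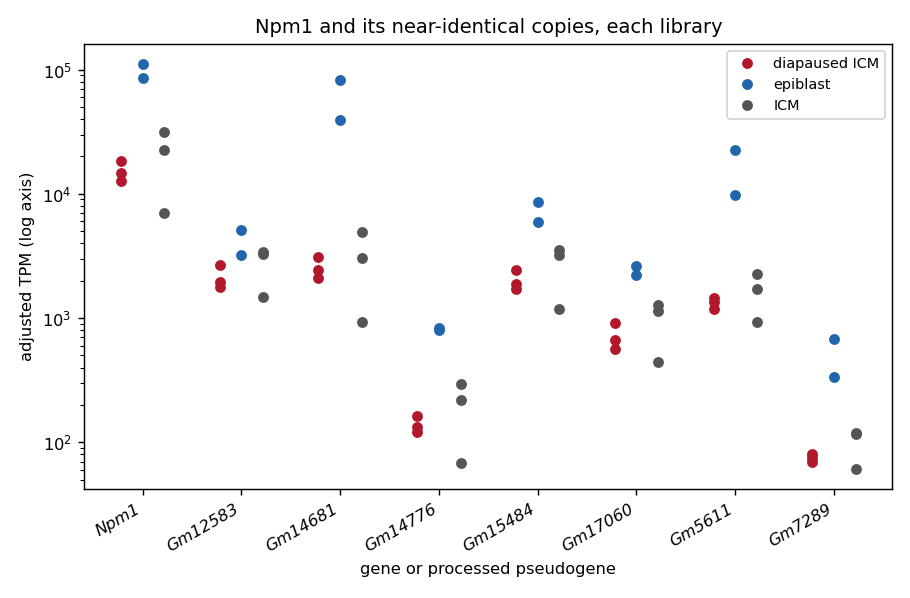
Adjusted TPM (log axis) of Npm1 and its 7 near-identical processed pseudogenes in each library of diapaused ICM, epiblast and ICM. The epiblast points lie highest for Npm1 (110400 and 85560), Gm14681 (82640 and 39340) and Gm5611 (22480 and 9739), and for Gm12583 epiblast and ICM points overlap.

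The box C/D snoRNP proteins carry out 2′-O-methylation of rRNA, with fibrillarin (Fbl) as the methyltransferase, Nop56 and Nop58 as the core pair, and Rrp9 bound to the U3 particle. Of these 4 genes 1 passed a test, Nop58, against 46.2% of all genes called in at least 1 comparison. Nop58 was at 123.1, 96.3 and 135.1 in diapaused ICM, 802 and 337.7 in epiblast, and 153.6, 98.1 and 191.9 in ICM. Diapaused ICM and ICM overlapped, and epiblast lay above both. Nop58 rose by 1.86 ± 0.41 in epiblast (adjusted p = 0.0102, but 0.0513 with no filter on low values). Without epiblast replicate 1 that change was 1.24. Nop58 was lower in diapaused ICM than in epiblast by -2.14 ± 0.41 (adjusted p = 0.00476). That last call held in all 21 alternatives. Its partner Nop56 was at 201.5, 311.3 and 273.6 in diapaused ICM, 452.5 and 192.5 in epiblast, and 309.6, 298.7 and 261.8 in ICM. The 2 epiblast libraries were the highest and the lowest of the 8, and no change passed. Fbl was at 96.9, 115.9 and 115.2 in diapaused ICM, 110.7 and 103.7 in epiblast, and 123.5, 198.4 and 159.2 in ICM. ICM was above the rest in every library, but neither -0.53 ± 0.23 in diapaused ICM (adjusted p = 0.179) nor -0.55 ± 0.26 in epiblast (adjusted p = 0.138) passed, and 62.4% of the summed level of Fbl and its 3 near-identical copies was listed under the copies. Most of that stood under Tulp4, a protein-coding gene with a transcript that matches Fbl, whose level also holds its own transcripts. Rrp9 averaged 13.1 ± 2.2 in diapaused ICM, 16 ± 0.017 in epiblast and 18.2 ± 10.3 in ICM.

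All 4 genes of box H/ACA snoRNPs, which turn uridines of rRNA into pseudouridines, had a negative log2 change in diapaused ICM relative to ICM, and 1, Gar1, passed. Among all 17698 genes, 8772 had a negative change in that comparison and 5.81% fell. Dyskerin (Dkc1) is the pseudouridine synthase, and Gar1, Nhp2 and Nop10 complete the particle. Gar1 (chr3:129824912-129831396, minus strand) was at 395.8, 389.5 and 484.5 in diapaused ICM, 557.3 and 580.7 in epiblast, and 863.5, 702.7 and 946.9 in ICM. The 3 groups did not overlap, with diapaused ICM lowest and epiblast between. Gar1 fell by 0.98 ± 0.20 in diapaused ICM (adjusted p = 0.0146), and the adjusted p was 0.0571 without ICM replicate 1, 0.053 without ICM replicate 3 or diapaused replicate 1, and 0.0512 without diapaused replicate 2. Its change in epiblast relative to ICM, -0.55 ± 0.23, did not pass (adjusted p = 0.101), but passed under 4 other scalings (adjusted p between 0.0105 and 0.0395). Nhp2 averaged 30.3 ± 12.1 in diapaused ICM, 40.2 ± 3.08 in epiblast and 55.8 ± 13.8 in ICM, a change of -0.89 ± 0.31 in diapaused ICM (adjusted p = 0.0995; 0.0395 without diapaused replicate 2, in which it was at 44). Dkc1 was at 110.1, 177.1 and 226 in diapaused ICM, 236.3 and 320.2 in epiblast, and 306.3, 111.4 and 351.6 in ICM. ICM replicate 2 lay in the diapaused range, and the change of -0.48 ± 0.45 did not pass (adjusted p = 0.554). Nop10 averaged 47.8 ± 22.8 in diapaused ICM, 62.3 ± 17.6 in epiblast and 53.4 ± 15.7 in ICM.

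The small subunit processome is the large particle that forms on the first part of the precursor RNA. Of its 11 genes here, 2 fell in diapaused ICM relative to ICM, 2 rose in epiblast, and 2 were lower in diapaused ICM than in epiblast. The shares of all genes were 5.81%, 16.7% and 18.6% in the same order. Wdr75 belongs to the t-UTP subcomplex, which in yeast and human cells also links transcription of rDNA to processing. It (chr1:45795166-45823619, plus strand) was at 11.3, 11.5 and 10.9 in diapaused ICM, 40 and 34.5 in epiblast, and 17.2, 20.9 and 23.5 in ICM. The groups stood apart, with diapaused ICM lowest and epiblast highest. Wdr75 fell by 0.81 ± 0.20 in diapaused ICM (adjusted p = 0.0298), rose by 0.83 ± 0.23 in epiblast (adjusted p = 0.0232), and was lower in diapaused ICM than in epiblast by -1.64 ± 0.23 (adjusted p = 0.000913). The last held in all 21 alternatives. The fall in diapaused ICM did not pass without any of ICM replicates 2 and 3 and the 3 diapaused replicates (adjusted p between 0.0592 and 0.0918). Nor did it pass with the replicate number as a block (0.0567). The rise in epiblast did not pass without ICM replicate 1 (0.0738), epiblast replicate 1 (0.16) or epiblast replicate 2 (0.0769), nor after rescaling to an equal sum (0.209), rescaling without abundant genes (0.0804) or median-of-ratios scaling (0.051).

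Utp6, of the UtpB subcomplex, was at 17.1, 15.8 and 22.2 in diapaused ICM, 14.9 and 27.9 in epiblast, and 43.5, 46.5 and 32.2 in ICM. Both other groups lay below ICM. Utp6 fell by 1.11 ± 0.28 in diapaused ICM (adjusted p = 0.0331). The call was lost without ICM replicate 1 (0.104) or 2 (0.0802) and without diapaused replicate 1 (0.085) or 2 (0.096). It was also lost with no filter on low values (0.107) and with the replicate number as a block (0.0626). In epiblast its change of -0.94 ± 0.32 had an adjusted p of 0.0504 (0.0319 with median-of-ratios size factors). Without epiblast replicate 2 that change was -1.37. Utp3 (Sas10) was at 24.9, 52.5 and 51.6 in diapaused ICM, 124.2 and 69.5 in epiblast, and 30.8, 17.6 and 25.3 in ICM. Epiblast lay above all other libraries, and diapaused replicate 1 in the ICM range. Utp3 rose by 1.91 ± 0.41 in epiblast (adjusted p = 0.0091; 0.0936 without epiblast replicate 1), and its change in diapaused ICM, 0.74 ± 0.37, was the highest of the 49 but did not pass (adjusted p = 0.232). Noc4l was at 7.67, 5.43 and 10 in diapaused ICM, 28.6 and 25.3 in epiblast, and 11.8, 7.6 and 18.9 in ICM. It was lower in diapaused ICM than in epiblast by -1.71 ± 0.37 (adjusted p = 0.00821; 0.0621 without epiblast replicate 1), and its change in epiblast relative to ICM, 1.10 ± 0.37, lay just outside (adjusted p = 0.0509; 0.0207 without ICM replicate 3).

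Heatr1, another t-UTP gene, had almost the same level everywhere. It was at 7.84, 7.24 and 8.78 in diapaused ICM, 10.1 and 9.62 in epiblast, and 9.54, 7.92 and 9.13 in ICM. Both epiblast libraries lay just above all others. Its changes against ICM, -0.14 ± 0.19 in diapaused ICM and 0.14 ± 0.21 in epiblast, did not pass (adjusted p = 0.699 and 0.645). Bms1, a GTPase of the processome, averaged 19.2 ± 4.31 in diapaused ICM, 28.7 ± 1.27 in epiblast and 29 ± 2.2 in ICM. Wdr43 averaged 24.6 ± 3.99 in diapaused ICM, 39.1 ± 1.11 in epiblast and 34.8 ± 3.99 in ICM. For both, all diapaused libraries lay below all others, without passing a test. Nop14 averaged 23.6 ± 5.02 in diapaused ICM, 30.1 ± 6.35 in epiblast and 31 ± 3.88 in ICM, Utp15 10.8 ± 3.24 in diapaused ICM, 16.6 ± 1.64 in epiblast and 11.8 ± 1.78 in ICM, and Utp20 2.39 ± 0.6 in diapaused ICM, 2.85 ± 0.65 in epiblast and 2.77 ± 0.66 in ICM. Utp18 was at 38.6, 3.46 and 2.28 in diapaused ICM, 5.86 and 6.66 in epiblast, and 10, 5.38 and 3.39 in ICM. Diapaused replicate 1 alone set its mean in that group, and without it the log2 change against ICM was -0.82 in place of 0.30 ± 0.82.

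Of the 4 genes of late small subunit assembly and export, 1 fell in epiblast relative to ICM, against 13.3% of all genes. Nob1, the endonuclease that makes the last cut of 18S rRNA, was at 11.4, 12 and 15.8 in diapaused ICM, 6.59 and 6.29 in epiblast, and 21, 19.8 and 11.8 in ICM. Epiblast was lowest, and ICM replicate 3 lay among the diapaused libraries. Nob1 fell by 1.28 ± 0.29 in epiblast relative to ICM (adjusted p = 0.0115; 0.0723 and 0.0699 without epiblast replicate 1 and 2) and was higher in diapaused ICM than in epiblast by 0.91 ± 0.29 (adjusted p = 0.0388). Ltv1, an export adaptor, was at 12.4, 14.5 and 15.7 in diapaused ICM, 49.5 and 30.5 in epiblast, and 25.9, 17.6 and 27.6 in ICM. The groups did not overlap, in the order seen for Wdr75. Ltv1 was lower in diapaused ICM than in epiblast by -1.40 ± 0.30 (adjusted p = 0.00759; 0.0814 without epiblast replicate 1), while -0.68 ± 0.27 against ICM did not pass (adjusted p = 0.133). Tsr1, a GTPase-like factor, averaged 53.3 ± 18.9 in diapaused ICM, 54.1 ± 4.54 in epiblast and 37.7 ± 11.9 in ICM, and Rrp12, an export factor, 3.78 ± 2.18 in diapaused ICM, 3.67 ± 0.32 in epiblast and 2.78 ± 1.24 in ICM.

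The 14 genes of large subunit assembly held both the largest rise and a part of the falls. Pes1, Bop1 and Wdr12 encode the PeBoW complex, which in mouse cells is needed for processing of the large subunit rRNAs. Pes1 (chr11:3963975-3980004, plus strand) was at 9.12, 6.01 and 9.62 in diapaused ICM, 15.3 and 17.6 in epiblast, and 23, 13.9 and 29.6 in ICM. Diapaused ICM was lowest, and epiblast lay within the range of ICM. Pes1 fell by 1.29 ± 0.30 in diapaused ICM relative to ICM (adjusted p = 0.0231). The adjusted p was 0.0772 without ICM replicate 1, 0.0714 without ICM replicate 3 and 0.0723 without diapaused replicate 2. It was 0.0937 with no filter on low values. Wdr12 was at 10.5, 10.7 and 10.5 in diapaused ICM, 18.9 and 29.6 in epiblast, and 11.5, 11.3 and 12.7 in ICM. It rose by 0.95 ± 0.24 in epiblast (adjusted p = 0.0187; 0.0519 without ICM replicate 1 and 0.162 without epiblast replicate 2) and was lower in diapaused ICM than in epiblast by -1.10 ± 0.24 (adjusted p = 0.00893; 0.0889 without epiblast replicate 2). The rise also missed the threshold after rescaling to an equal sum (0.148) and after rescaling without abundant genes (0.0653). Bop1 averaged 1.78 ± 0.56 in diapaused ICM, 2.64 ± 0.42 in epiblast and 2.26 ± 1.17 in ICM. Relative to ICM, Pes1 was thus called in diapaused ICM, Wdr12 in epiblast and Bop1 in neither, and differences between the 3 genes were not tested. For all 3, every diapaused library lay below both epiblast libraries, as for 34.1% of all genes. In that comparison Pes1 changed by -0.94 ± 0.34 (adjusted p = 0.0571), passing in 7 of 21 alternatives, and Bop1 by -0.41 ± 0.33 (adjusted p = 0.359).

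Rrs1, which brings the 5S ribonucleoprotein into the large subunit precursor, gave the largest change of the 49 genes. It lies at chr1:9545408-9547455 on the plus strand and was at 8.51, 7.93 and 8.99 in diapaused ICM, 124 and 38 in epiblast, and 2.9, 6.1 and 6.47 in ICM. The 2 epiblast libraries differed from each other by more than the other libraries did, yet both lay above all of them. Rrs1 rose by 3.56 ± 0.47 in epiblast (adjusted p = 0.000902) and was lower in diapaused ICM than in epiblast by -2.88 ± 0.47 (adjusted p = 0.0022), both in all 21 alternatives, with a lowest change of 2.72 in epiblast. All 3 diapaused libraries were above all 3 ICM libraries, but 0.68 ± 0.42 did not pass (adjusted p = 0.346). Gnl2 and Gnl3 (nucleostemin) are nucleolar GTPases, Gnl3 being known from stem cells. Gnl2 was at 98.8, 62 and 100.9 in diapaused ICM, 216.4 and 184.6 in epiblast, and 74.9, 42 and 67.7 in ICM. It rose by 1.73 ± 0.33 in epiblast (adjusted p = 0.00536; 0.056 without epiblast replicate 1) and was lower in diapaused ICM than in epiblast by -1.22 ± 0.33 (adjusted p = 0.0203), which was lost with no filter on low values (0.0615) and without diapaused replicate 2 (0.0524), epiblast replicate 1 (0.124) or epiblast replicate 2 (0.0715). Gnl3 was at 41.8, 34.3 and 39.2 in diapaused ICM, 95.1 and 58.5 in epiblast, and 34.1, 23.1 and 36.1 in ICM. It rose by 1.26 ± 0.30 in epiblast (adjusted p = 0.0135; 0.134 without epiblast replicate 1) and was lower in diapaused ICM than in epiblast by -0.94 ± 0.30 (adjusted p = 0.0369). That last call was lost without ICM replicate 1 or any diapaused replicate (adjusted p between 0.0528 and 0.0855). It was also lost with no filter on low values (0.0799) and with median-of-ratios size factors (0.061). Without epiblast replicate 1 the change was -0.60.

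Mrto4, the nuclear counterpart of a stalk protein, was at 40.1, 26.7 and 44.3 in diapaused ICM, 55.5 and 97.9 in epiblast, and 73.2, 111.7 and 64.3 in ICM. Diapaused ICM lay below every other library. Its fall of 1.13 ± 0.32 in diapaused ICM relative to ICM had an adjusted p of 0.049, and the call was lost in 12 of 21 alternatives, including each that left out a diapaused or an ICM library (adjusted p between 0.0654 and 0.142). Noc2l, of a complex that accompanies the large subunit precursor, was at 9.63, 9.96 and 10.4 in diapaused ICM, 10 and 6.11 in epiblast, and 11.2, 18.7 and 19.2 in ICM. It fell by 0.94 ± 0.30 in epiblast (adjusted p = 0.0424), a call lost in 11 of 21 alternatives, among them each that left out an epiblast or a diapaused library, or ICM replicate 2 or 3 (adjusted p between 0.0535 and 0.279). Ebna1bp2, which acts in early large subunit precursors, averaged 50.5 ± 16.5 in diapaused ICM, 102.7 ± 48.2 in epiblast and 77.4 ± 19 in ICM. The other 5 genes of the group, Nop2, Nop16, Rrp1b, Nip7 and Noc3l, passed in no comparison, with log2 changes between -0.28 and 0.085 in diapaused ICM relative to ICM and between -0.33 and 0.48 in epiblast relative to ICM.

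**Figure D5:**
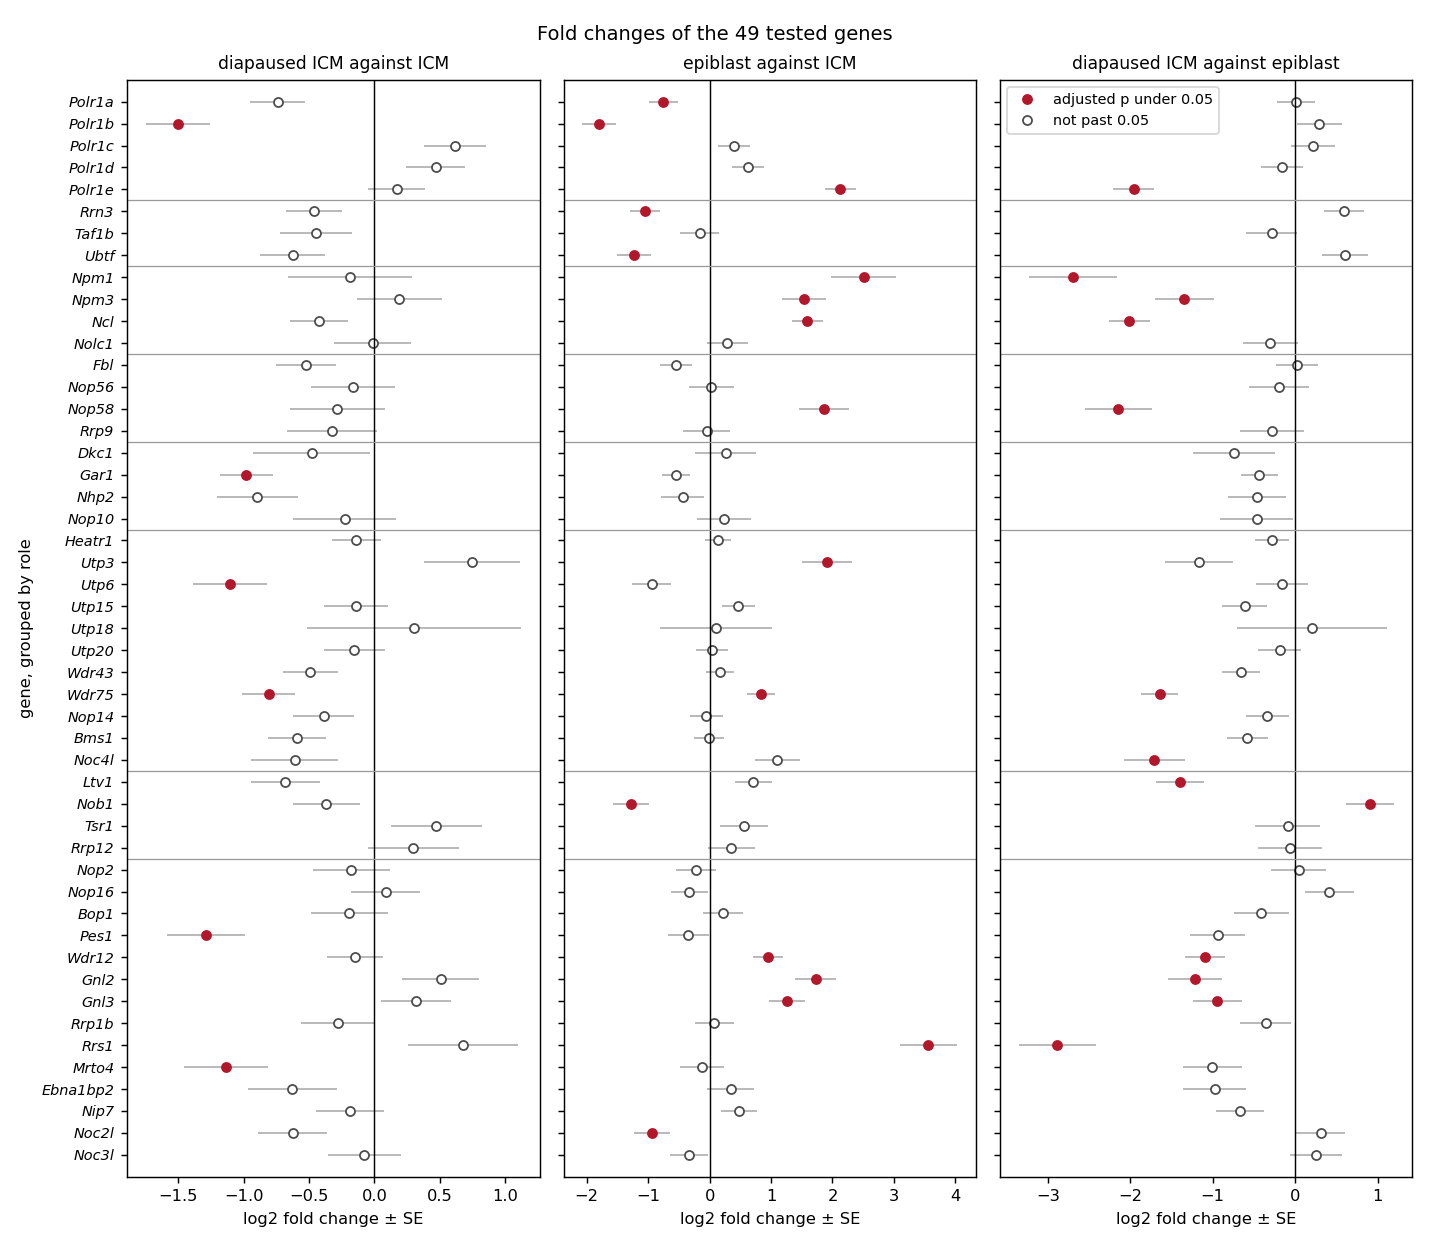
log2 fold change ± SE (horizontal axis, with its own range in each panel) of the 49 tested genes (down the page, grouped by role) for diapaused ICM against ICM, epiblast against ICM and diapaused ICM against epiblast. Filled points have an adjusted p under 0.05. They number 6, 17 and 13, and the 6 of the left panel all lie below 0.

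A further 177 genes of the same pathway, in 8 lists, were examined beside the 50, and 176 were in the table and tested. In diapaused ICM relative to ICM, 2 of them (1.14%, against 7.52% of all genes) rose and 12 (6.82%, near the 5.81% of all genes) fell, with a median log2 change of -0.20. In epiblast relative to ICM 31 (17.6%) rose and 23 (13.1%) fell, near the 16.7% and 13.3% of all genes, with a median of 0.05. In diapaused ICM relative to epiblast 18 (10.2%, against 16.0%) were higher and 47 (26.7%, against 18.6%) lower, with a median of -0.29. The medians of all 17698 genes in these comparisons were 0.00, 0.14 and -0.11. In diapaused ICM the falls were spread over 7 of the 8 lists: 4 of 38 other processome genes, 2 of 46 other large subunit genes, 2 of 13 snoRNP assembly genes, and 1 each of 12 other polymerase I genes, 22 polymerase III genes, 8 late small subunit genes and 26 rRNA nuclease genes. Wrap53, which sends H/ACA RNAs to Cajal bodies, averaged 3.88 ± 0.65 in diapaused ICM and 12.5 ± 2.73 in ICM and fell by 1.46 ± 0.22 (adjusted p = 0.00332). Ngdn, of the processome, averaged 21.3 ± 1.22 in diapaused ICM and 44.8 ± 3.71 in ICM and fell by 1.04 ± 0.20 (adjusted p = 0.00954). Polr2h, a subunit shared by the 3 nuclear RNA polymerases, averaged 21.3 ± 8.11 in diapaused ICM and 51.3 ± 10.1 in ICM and fell by 1.27 ± 0.29 (adjusted p = 0.0208). The 2 that rose were Polr3d, of polymerase III, and Ptrf, a caveolar protein also named for release of the polymerase I transcript, at 4.74 ± 3.05 in diapaused ICM and 0.576 ± 0.187 in ICM.

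In epiblast relative to ICM, most lists held both rises and falls. The polymerase III list held 0 rises and 1 fall, and the list of other late small subunit genes 1 rise and 0 falls. Cd3eap, another polymerase I subunit gene, averaged 11.6 ± 3.72 in epiblast and 3.23 ± 0.42 in ICM and rose by 1.55 ± 0.31 (adjusted p = 0.00643). Znrd1, which encodes the polymerase I subunit that trims RNA ends, averaged 22.3 ± 4.22 in epiblast and 76.5 ± 29.3 in ICM and fell by 1.69 ± 0.35 (adjusted p = 0.00761). Polymerase I subunit genes thus moved in both directions, as Polr1e and Polr1b did among the 5 above. The list with most rises was large subunit assembly, which was also the longest. In it 13 of 46 genes rose and 3 fell, against 16.7% and 13.3% of all genes. Brix1 of that list averaged 199.3 ± 29.1 in epiblast and 61.8 ± 5.72 in ICM, a rise of 1.67 ± 0.22 (adjusted p = 0.000934). Naf1, which assembles H/ACA particles, averaged 16.1 ± 4.41 in epiblast and 2.53 ± 1.11 in ICM and rose by 2.30 ± 0.32 (adjusted p = 0.00109). Bysl, needed for small subunit maturation, averaged 7.85 ± 0.83 in epiblast and 34.1 ± 9.87 in ICM and fell by 1.95 ± 0.30 (adjusted p = 0.00191). In diapaused ICM relative to epiblast, Exosc9, a core subunit of the RNA exosome, averaged 24.5 ± 7.15 in diapaused ICM and 183.5 ± 37.7 in epiblast, a change of -2.88 ± 0.31 (adjusted p = 0.000288).

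Several of the 50 genes share sequence or position with others. Near-identical copies were found for 12 of the 50, 22 copies in all. Besides Fbl and Npm1, the copies held 54.7% of the summed level of gene and copies for Polr1d, whose pseudogene Gm12751 was 100% identical over 381 bases, 44.5% for Wdr12, 40.8% for Nop56 and 25.8% for Npm3. They held 13.1% for Pes1 and 13.2% for Mrto4. Adding the copies to their genes changed 2 calls, both in diapaused ICM relative to epiblast: Npm3 lost its call and Mrto4 gained one (-0.93, adjusted p = 0.0498). Exonic bases were shared with a gene of the opposite strand by 18 of the 50, most of them by Tsr1 (1240 bases with Srr), Noc2l (598 bases with Samd11) and Taf1c (584 bases with Dnaaf1). Whether the authors counted by strand is not given, so whether reads from the shared bases were told apart is unknown. Another group of 7 genes, Ncl, Nop56, Nop58, Dkc1, Wdr43, Tsr1 and Gnl3, carry 21 annotated small nucleolar or Cajal RNAs within their loci on the same strand. In epiblast relative to ICM, 3 of these 7 host genes rose (Ncl, Nop58 and Gnl3), against 16.7% of all genes, and in diapaused ICM relative to ICM 0 of the 7 passed, against 13.3% of all genes called. At an unadjusted p under 0.05 in that comparison, Wdr43 alone was lower.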

How the data were processed

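Gene levels came from RNA sequencing of amplified RNA from 3 libraries of diapaused ICM, 2 of epiblast and 3 of ICM. The values are handled as a signal per gene that the authors deposited under the name adjusted TPM: their sums differ between libraries, so a plain TPM, which the test plan had assumed, did not apply, and the log-scale test of that plan was kept. For the adjustment, counter, annotation and strand setting, the sources used here give nothing. The submitters' processing notes name Bowtie 0.12.5, DESeq and the mm9 build. Inner cell masses were freed of trophectoderm by antibody and complement, per the labels' protocols. Read depth is unknown, so no counting interval is given, and p-values measure the spread between pooled libraries.

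Of 38924 genes, 17698 with a value of 1 or more in at least 2 libraries were tested with limma 3.58.1 in R 4.3.3, on log2(value + 1), all 8 libraries and 3 groups in 1 fit with a variance trend, and Benjamini-Hochberg adjustment over all genes tested. Fold changes on this scale understate the change of low genes. Where a symbol was repeated (204 lines), the line with the highest mean stood for the gene. The test was tried on simulated data first. The 50 genes, the other gene lists and the markers were chosen with earlier results of these data known. Every one of the 50 is named, and other pathway genes were eligible for naming if among the 3 of lowest adjusted p per list. Gene positions are those of GENCODE M21 on GRCm38 and promoters those of RefSeq on GRCm38.p6, matched by symbol for 43 of the 50 genes. Copies were found with blastn 2.17.0 at 90% identity or more, over at least 200 bases and 50% of the copy. Alternatives were other pseudocounts, filters and scalings, no variance trend, fits of 2 groups only, summed repeated symbols, a replicate block and each library left out. The sum with near-identical copies was added after the values had been seen.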

Additional observations from a re-analysis of the deposited data

How the results depend on the processing

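No result below changed its direction of call in any of 21 alternatives, and 0 of the 50 genes rose in diapaused ICM relative to ICM in any of them. The 6 genes lower there became 3 with no filter on low values, 9 with equal sums or equal sums without abundant genes, 7 with a filter at 5 or median-of-ratios factors, and between 2 and 6 with a library left out, and all genes called (2360) became 1278 with no filter and between 1404 and 2148 with a library left out. The genes higher in epiblast than in ICM (11) ranged from 4 to 12 with a library left out, those lower (6) from 1 to 5, and all genes called (5324) from 1788 to 5257, the lowest each without epiblast replicate 1. The genes lower in diapaused ICM than in epiblast (12) ranged from 7 to 15 with a library left out, those higher (1) from 0 to 1, and all genes called (6113) from 2539 to 6351. The 1 higher gene became 0 with no filter, equal sums, quantile normalization, equal sums without abundant genes or the replicate block, and 2 with median-of-ratios factors. Median log2 changes moved with scaling: in diapaused ICM relative to ICM to -0.551 (equal sums) and -0.461 (without abundant genes), and in epiblast relative to ICM to -0.122, -0.01 and, with median-of-ratios factors, 0.007. With a library left out they were between -0.361 and -0.172 in the first and between 0.075 and 0.233 in the second. In diapaused ICM relative to epiblast the median was -0.294 with a pseudocount of 5, -0.281 with median-of-ratios factors and between -0.524 and -0.403 with a library left out. Why these values moved was not tested, beyond fewer libraries where one was left out. Over the 49 tested genes, the 3 comparisons and the alternatives, 2924 results kept their side of the threshold, 105 lost a call and 49 gained one.

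With the replicate number as a block, 3 genes were lower in diapaused ICM than in ICM, 12 were higher and 4 lower in epiblast than in ICM, and 13 were lower in diapaused ICM than in epiblast, with 2004, 4475 and 5314 genes called in all. Whether the numbers pair the libraries cannot be settled here, since deviations from the means of so few libraries are not independent of each other. Deviations of same-numbered ICM and diapaused libraries correlated at 0.017, 0.103 and 0.131, and other pairings of the same groups at -0.148 to 0.033.

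Groups of 3, 2 and 3 libraries, unknown depth and undescribed adjustment limit what these values can show. A library left out of the epiblast leaves 1, which the fit assumes to vary like the other groups.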
